A study of Drosophila melanogaster with 16 samples.

Results

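The feeding response of the fly brain was set against that of the antenna, gene by gene, to find genes that responded in 1 tissue alone or in opposite directions and to separate them from the response that both tissues shared. All 16 arrays of the series were used. For each gene the difference between starved and fed flies was taken in brain and in antennae, and the contrast was the change in brain minus the change in antennae, on the log2 scale. The contrast was called, at an adjusted p under 0.05, for 531 of 16519 genes and unmatched transcripts (3.21% of those tested). It was positive for 294 (1.78%) and negative for 237 (1.43%). The arrays were taken by their labels, and the probes by brightness above background.

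The flies were female Drosophila melanogaster. The labels name no transgene, mutation or strain for any group, and the methods list CantonS among several lines without naming the flies of the arrays. The 4 groups were antennae and brains of flies starved for 28 h, and antennae and brains of flies with 0 h of starvation, which had access to sucrose by the methods, all 5 to 7 days old by the labels. RNA was extracted 4 times for each feeding state, from 100 antennae and 50 brains of 50 flies, so each array measured a pool of animals, and each extract was hybridized to 1 array. A slide held 4 arrays, 1 from each group, and a group kept its position from slide to slide, so that position and group cannot be told apart.

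A fly without food draws on the lipid and glycogen of its fat body, an organ that does the work of liver and adipose tissue. Insulin-like peptides from neurosecretory cells of the brain and adipokinetic hormone set the balance between storage and use. The antenna carries the olfactory neurons with their odorant receptors and the binding proteins and enzymes of the sensillum lymph, whereas the brain holds the peptidergic neurons and their surrounding glia. The feeding response of the olfactory system was the question of the study, and the brain was profiled beside the antenna.

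The 75th percentile of the signal, to which every level below is relative, lay between 614 and 1028 fluorescence units, and 65.4 to 73.6% of the spots of an array were well above background. The tissues carried their own markers. The summed level of 29 antenna markers was 1380 to 1840 times the 75th percentile on antennal and 28.3 to 49.4 on brain arrays, and that of 27 brain markers was 19.5 to 26.4 and 122 to 165. RNA of digestive enzyme genes varied between arrays. Over the 39 tested genes the summed level reached 165 and 341 on fed antennal replicates 1 and 2 but stayed between 7.04 and 12.4 on the other 6 antennal arrays, and it ranged from 42.2 to 557 in brain. Directions are given as the arrays are labelled, and "rose" and "fell" stand for a higher and a lower level under the starved label than under the fed label. By these labels AstA was lower in starved antennae and CCHa1 lower in starved brain. The study gives an allatostatin as raised in antennae and a CCHamide, without naming its gene, as raised in brain. It also gives short neuropeptide F as raised in antennae, where sNPF changed by −0.06 here and was not called. CCHa2, the other CCHamide gene, was higher in starved brain, by 0.57. Pepck1 and Pepck2 were lower in both tissues. Whether the feeding labels are turned was not tested. Turning the labels of both tissues would turn every sign, and would leave a gene in its class.

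Of the genes placed in a class, most were counted as shared, which asks for no called contrast and not for equal changes. The change was called in brain for 6233 genes (37.7%), 13.6% of all tested rising and 24.1% falling. In antennae it was called for 3764 (22.8%), 8.18% rising and 14.6% falling. Of these, 2342 (14.2% of all tested) changed in the same direction in both tissues without a called contrast, 703 upward and 1639 downward. Of the 2342, 34 had a contrast of at least 2-fold that was not called. The split into rises and falls within a tissue depended on the scaling. Of the shared genes 30.0% rose here, against 77.2% with median centring and 47.6% with quantile scaling, and the corresponding shares of the genes called were 36.1%, 64.6% and 47.2% in brain and 35.9%, 76.2% and 56.7% in antennae. Median centring moved the median change of all probes from −0.058 to 0.149 in antennae and from −0.091 to 0.113 in brain, whereas the median contrast moved from −0.031 to −0.034. Of the called contrasts 55.4% were positive here, and 50.3 to 62.1% with the 3 other scalings. Small changes within a tissue are thus relative to the 75th percentile.

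The shared genes were 37.6% of the genes called in brain and 62.2% of those called in antennae. Among the 531 genes with a called contrast, 360 were called in brain and not in antennae (2.18% of all tested), 69 in antennae and not in brain (0.418%), 38 in both in opposite directions (0.23%) and 64 in both in the same direction but by unequal amounts (0.387%). Of the genes called in brain, 3429 were called neither in antennae nor in the contrast, and of those called in antennae 1251 were called neither in brain nor in the contrast. These were counted neither as shared nor as particular to a tissue, and 86.0% of the first and 80.7% of the second had the same sign in the other tissue. A p that misses the threshold does not show a flat response, so a stricter form of the 2 classes also asked that the 95% interval of the change in the other tissue lay within 1.5-fold either way. It held 195 brain genes, 141 rising and 54 falling, and 39 antennal genes, 21 rising and 18 falling.

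**Figure D1:**
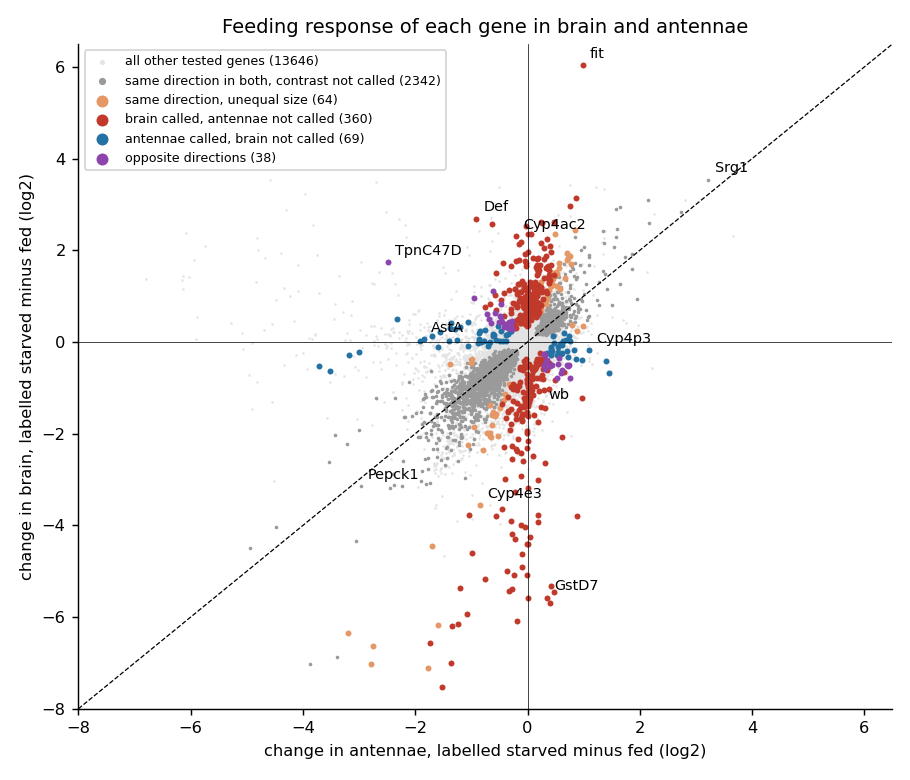
Change in antennae (x axis) and in brain (y axis) of each tested gene, as log2 of labelled starved minus labelled fed, with 1 point per gene and the dashed line where both changes are equal. The 2342 shared genes lie along the line, the 360 genes called in brain and not in antennae stand near the vertical axis, and the 69 antennal genes lie near the horizontal axis.

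The called contrasts had a median size of 1.03 on the log2 scale, and 279 of 531 reached 2-fold. The standard error of the contrast had a median of 0.18. The call itself selects for contrasts that are large against the spread between slides, so the values by slide are a description. Within single slides 526 of the 531 genes kept the sign of the contrast on all 4 and the other 5 on 3. For 521 (98.1%, against 11.2% of all tested genes) the brain minus antennae differences of the starved slides did not overlap those of the fed ones. Of 128 called genes with a further tested probe, 120 had the same sign with all of their probes and 53 were called with another probe. Near the threshold, Idua had a contrast of 0.83 and an adjusted p of 0.0489, and CG9485 one of 0.58 and 0.0506.

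Of the 38 genes with opposite changes, 20 rose in brain and fell in antennae and 18 did the reverse. Among the former, CG16820, a gene without a name of its own, had the largest contrast of those measured on all arrays. Its level in antennae was −4.51, −4.01, −3.91 and −4.18 on starved replicates 1 to 4 and −3.44, −3.18, −3.61 and −3.90 on fed ones. In brain it was 0.18, 0.23, 0.14 and −0.44 starved and −1.20, −0.73, −1.0 and −1.39 fed. The starved and fed arrays did not overlap in either tissue, with all starved values the lower in antennae and the higher in brain. The change was −0.62 (SE 0.20) in antennae and 1.11 (SE 0.20) in brain, a contrast of 1.73 (SE 0.28, adjusted p = 0.00431 by limma). The other probe of CG16820 did not share this pattern, with −0.99 in antennae, −1.37 in brain and a contrast of −0.39 (adjusted p = 0.809), and the average of both probes was not called. CG14400 (contrast 1.29, adjusted p = 0.00712), CG34109 (1.20, adjusted p = 0.00555) and the transcript AI293881 (1.32, adjusted p = 0.0032) followed. The call of AI293881 was lost with normexp. The other probe of CG34109 gave 1.19 (adjusted p = 0.00291).

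Of the 20 genes that rose in brain and fell in antennae, mnd, glob1, PolA1 and Mcm7 were picked for their known products after their values were seen, and they stand for no group. For mnd, which encodes the amino acid transporter minidiscs, the 4 antennal levels were −3.11, −3.33, −3.20 and −3.29 starved and −2.33, −2.46, −2.67 and −2.75 fed. The brain levels of mnd were 1.40, 1.16, 1.45 and 1.43 starved and 1.01, 0.87, 0.92 and 0.64 fed. Neither tissue showed an overlap, and the slides gave contrasts from 1.07 to 1.33. The contrast of mnd was 1.19 (SE 0.15, adjusted p = 0.00154), and its second probe gave 1.21 (adjusted p = 0.00291). The globin gene glob1, whose product binds oxygen, changed by −0.65 in antennae and 0.42 in brain (contrast 1.06, adjusted p = 0.00536). PolA1, the catalytic subunit of the DNA polymerase that starts new strands, changed by −0.50 and 0.58 (contrast 1.07, adjusted p = 0.00431), and Mcm7, a subunit of the replicative helicase, by −0.48 and 0.54 (contrast 1.02, adjusted p = 0.0104). The call of Mcm7 was lost with normexp, and its contrast ranged from 0.02 to 1.18 over all alternatives.

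Most genes that changed in the reverse direction were more abundant in antennae. Their median changes were −0.50 in brain and 0.48 in antennae, against 0.45 and −0.47 for the first kind. Of the 18 genes, 15 had the higher mean level in antennae, 10 of them by at least 4-fold, against 6 of the 20 genes of the first kind and none by that much. For cDIP, a cell surface protein with leucine-rich repeats, the antennal levels were 3.16, 3.18, 3.31 and 3.22 starved and 2.67, 2.73, 2.80 and 2.52 fed. Its brain levels were −0.74, −0.97, −0.65 and −0.88 starved and −0.15, −0.45, −0.66 and −0.08 fed. The antennal arrays did not overlap, and in brain the lowest fed array lay within the starved range. The changes of cDIP were 0.54 and −0.48 and its contrast −1.01 (SE 0.17, adjusted p = 0.0048). OSCP1 changed by 0.55 in antennae and −0.36 in brain (contrast −0.91, adjusted p = 0.00268), with −0.91 (adjusted p = 0.0321) by its other probe. The transcripts BT024192 and TC214893 had contrasts of −0.94 and −0.93 (adjusted p = 0.00353 and 0.0193).

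**Figure D2:**
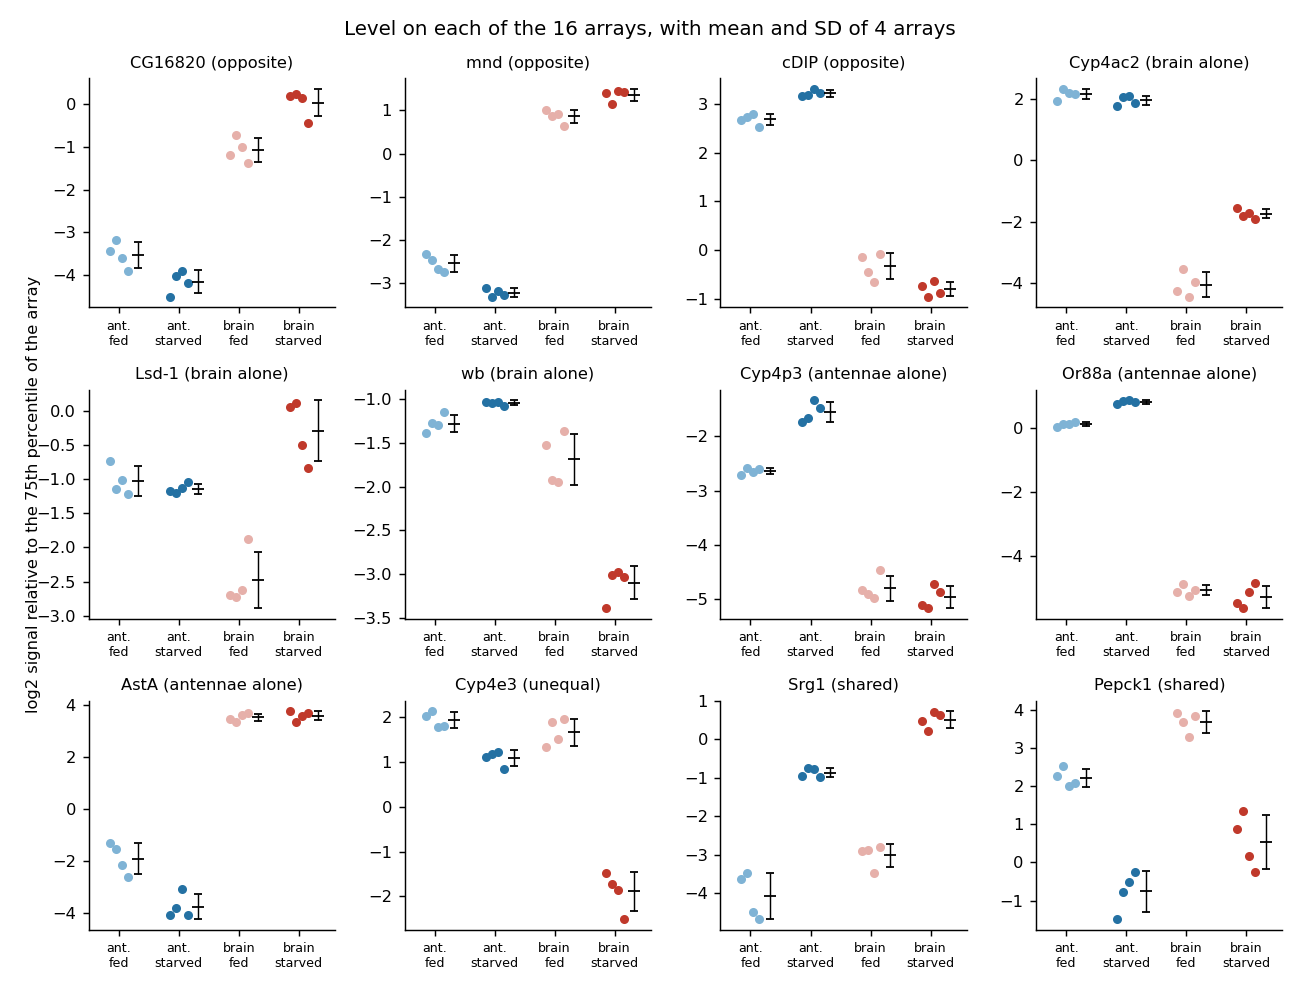
Level of 12 genes on each of the 16 arrays, as log2 of the signal relative to the 75th percentile of the array, with the points of a group in order of replicate and the bar giving mean ± SD of 4 arrays. In antennae the starved and fed points of Cyp4ac2 overlap, while its brain points stand apart by 2.31, and Srg1 and Pepck1 move the same way in both tissues.

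The genes that rose in brain without a called change in antennae were the largest group, with 197 members and a median change of 1.02 in brain and 0.04 in antennae. Cyp4ac2, a cytochrome P450 of a family that hydroxylates fatty acids, had brain levels of −1.56, −1.81, −1.73 and −1.91 starved and −4.28, −3.54, −4.47 and −3.98 fed. Its antennal levels were 1.78, 2.08, 2.10 and 1.88 starved and 1.95, 2.34, 2.21 and 2.16 fed. All starved brain arrays were above all fed ones, whereas the antennal groups overlapped. The change in brain of 2.31 (SE 0.16) was 4.96-fold, that in antennae was −0.20 (95% interval −0.56 to 0.15), and the contrast was 2.51 (SE 0.23, adjusted p = 0.000203). Its other probe gave a contrast of 2.32 (adjusted p = 0.00027). The transcripts TC208039 (contrast 2.28, adjusted p = 0.00164) and BG639400 (1.96, adjusted p = 0.00445) had rises of 2.35 and 1.96 in brain and changes of 0.07 and 0.01 in antennae.

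Lsd-1, which encodes a perilipin that coats lipid droplets, rose in brain alone. On the brain arrays it was at 0.05, 0.11, −0.50 and −0.84 starved and at −2.70, −2.72, −2.63 and −1.87 fed, with fed replicate 4 apart above the others. On the antennal arrays it was at −1.18, −1.20, −1.13 and −1.04 starved and at −0.73, −1.14, −1.01 and −1.22 fed. The brain groups did not overlap and the antennal ones did. The changes were 2.19 (SE 0.22) and −0.11 (95% interval −0.58 to 0.35), and the contrast was 2.30 (adjusted p = 0.00195). The other perilipin gene, Lsd-2, differed less (−0.23 in antennae, 0.34 in brain, contrast 0.57, adjusted p = 0.0146). Both other probes of Lsd-2 put the change in antennae, at −0.57 and −0.70 against 0.04 and 0.06 in brain, and neither contrast was called (0.61 and 0.76, adjusted p = 0.124 and 0.102). Jabba, a further lipid droplet protein, named after its values were seen, changed by −0.20 and 1.77 (contrast 1.97, adjusted p = 0.000158), with 1.51 (adjusted p = 0.00521) by its second probe. The lipase of the droplet went the other way. For bmm, which encodes the triglyceride lipase brummer, the brain levels were 1.74, 1.5, 2.10 and 2.40 starved and 3.07, 2.79, 2.75 and 3.35 fed, and all starved arrays were lower. The change of bmm was −1.06 (SE 0.19) in brain and 0.09 (95% interval −0.31 to 0.49) in antennae. Its contrast was −1.14 (adjusted p = 0.0321), with −1.14 and −1.36 (adjusted p = 0.00492 and 0.000838) by its other probes, and the call held in 7 of 16 fits that left out an array.

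Of 32 listed genes of starvation and sugar metabolism, all tested, the contrast was called for Lsd-1 and Lsd-2 upward (against 1.78% of all tested genes) and for bmm and ImpL2 downward (against 1.43%). A further 8 were shared (against 14.2% of all tested genes), and the others were placed in no class. Their median contrast was 0.09, against −0.03 over all tested genes. Pepck1 and Pepck2, the carboxykinases of gluconeogenesis and glyceroneogenesis, fell in both tissues, with changes of −2.97 and −4.93 in antennae and of −3.14 and −4.5 in brain. Thor, the translation repressor 4E-BP, fell by 0.81 and 0.73, and foxo by 0.34 and 0.52. The sugar-responsive repressor gene sug rose by 1.65 in antennae and 2.94 in brain.

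Of 28 genes of insulin and TOR signalling 2 had a higher response in brain (against 1.78% of all tested genes) and 1 a lower one (against 1.43%), and 6 were shared (against 14.2%). Their median contrast was −0.03, as over all tested genes. ImpL2 encodes a secreted protein that binds insulin-like peptides. In brain it was at 2.40, 2.61, 2.45 and 2.54 starved and at 3.44, 2.93, 3.38 and 4.05 fed, without overlap, and in antennae the means were 1.44 and 1.29. Its contrast of −1.11 (SE 0.24, adjusted p = 0.0222) was −1.35 (adjusted p = 0.00398) by the second probe. Ilp6, an insulin-like peptide that the fat body releases, rose by 0.63 in brain and changed by −0.02 in antennae (95% interval −0.23 to 0.19, contrast 0.65, adjusted p = 0.0202). Both further probes of Ilp6 were called as well, at 0.74 and 0.76, with changes of 0.50 and 0.30 in antennae. Ilp3, a peptide of the insulin-producing cells of the brain, was well above background on no starved antennal array and on 2 of 4 fed ones. The size of its antennal change is thus not bounded. Its contrast of 2.83 (adjusted p = 0.0477) kept the call in 1 of 16 fits that left out an array.

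Of 21 tested fat body markers 13 rose in brain, against 13.6% of all tested genes. The gene fit, with the largest rise in brain of all tested genes, encodes a secreted protein of the female fat body. In brain it was at 0.36, 0.25, −0.85 and −1.64 starved and at −6.53, −4.30, −6.79 and −8.38 fed. In antennae it was at −5.27, −6.07, −4.09 and −4.67 starved and at −5.54, −5.81, −5.61 and −7.07 fed. The brain groups stood apart by 6.03 (SE 0.73), the antennal ones by 0.98 (95% interval −0.58 to 2.55), and the contrast was 5.05 (SE 1.03, adjusted p = 0.0169). The signal was well above background on 2 of 4 fed brain arrays and 3 of 4 fed antennal ones, and on all starved arrays. Obp99b, a binding protein also made in fat body, changed by 2.96 and 0.76 (contrast 2.20, adjusted p = 0.0473), and Lsp2, a storage protein, by 2.57 and −0.64 (contrast 3.21, adjusted p = 0.0477). These calls of Obp99b and Lsp2 held in 4 and 3 of 16 fits that left out an array. Nplp2, listed with the neuropeptides, rose by 2.63 in brain (6.32, 5.81, 6.28 and 6.01 starved against 3.6, 4.25, 3.11 and 2.94 fed) and changed by 0.47 in antennae (contrast 2.16, adjusted p = 0.0123). Its other probe gave 0.41 (adjusted p = 0.569).

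The list of fat body markers had 5 called contrasts (against 3.21% of all tested genes), all of genes already described, with fit, Obp99b, Lsp2 and Lsd-1 higher and bmm lower in brain. They are no support beyond the values given for them. Besides the 13 that rose, 2 of the 21 fell in brain, and 4 rose and 1 fell in antennae, with a median change of 0.96 in brain and 0.03 in antennae. Their summed level was 179 to 275 on starved and 111 to 127 on fed brain arrays, and 126 to 153 and 110 to 126 on antennal ones. The yolk protein genes Yp1, Yp2 and Yp3 rose in brain by 2.02, 2.49 and 1.25 without a called contrast. The part of fat body RNA in the brain response was not tested. In whole extracts, fewer cells of a type and less RNA per cell cannot be told apart.

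Of the gene lists, that of hemocytes, the blood cells of the fly, had the highest share of called contrasts. Of 13 markers 7 had a called contrast, all with the higher response in brain, against 1.78% of all tested genes. Of the 13 contrasts 12 were above 0 (median 0.63), against 7356 of 16519 over all tested genes. With other scalings and normexp 5 to 7 contrasts were called, all upward. In brain 9 of the 13 markers rose and 2 fell, against 13.6% and 24.1% of all tested genes. In antennae 2 rose and 3 fell, against 8.18% and 14.6%. Hml, the clotting protein hemolectin, had brain levels of −0.38, −0.60, 0.07 and −0.27 starved and −1.25, −1.40, −1.52 and −1.38 fed, with no overlap. In antennae its levels were −1.04, −1.35, −0.95 and −1.02 starved and −1.18, −0.92, −0.73 and −1.02 fed, which overlapped. The contrast of Hml was 1.22 (SE 0.19, adjusted p = 0.00412), and both other probes were called, at 1.17 and 1.21. The matrix protein papilin (Ppn, contrast 0.91, adjusted p = 0.00474) and the phagocytosis receptor eater (contrast 0.92, adjusted p = 0.0162) also rose in brain alone. The call of eater was lost with normexp. PPO1, a prophenoloxidase of crystal cells, reached its contrast of 1.78 (adjusted p = 0.00598) the other way, with a fall of 1.56 in antennae and a change of 0.22 in brain. NimC1 and He, further hemocyte genes, rose in both tissues, by 1.28 and 1.34 in antennae and 1.30 and 1.55 in brain. The summed level of the 13 markers was 40.2 to 47.9 on starved and 28.4 to 30.0 on fed brain arrays, and 15 to 17.4 and 16.4 to 20.6 on antennal ones. Def, the antimicrobial peptide defensin, changed by 2.69 in brain and −0.91 in antennae (contrast 3.6, adjusted p = 0.0323), its other probe gave 1.90 (adjusted p = 0.184), and the call held in 7 of 16 fits that left out an array. Def was the 1 of 14 tested antimicrobial genes that was called, against 3.21% of all tested genes.

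Of 27 brain markers 1, Vmat, was called in brain alone, while 3 were called in antennae alone. Of 18 glia markers 2, CG6126 and Mdr65, were called in brain alone. Over all tested genes 2.18% were called in brain alone and 0.418% in antennae alone. In brain 9 of the 18 glia markers rose, against 13.6% of all tested genes, and 1 fell. Of the glia contrasts 14 were above 0. Vmat, the transporter that loads monoamines into vesicles, was at 5.44, 5.13, 5.38 and 5.56 starved and at 4.62, 4.68, 4.47 and 4.41 fed in brain, without overlap. It changed by −0.02 (95% interval −0.23 to 0.19) in antennae, and its contrast was 0.85 (SE 0.14, adjusted p = 0.00476). Its 4 other probes gave contrasts of 0.65 and 0.47, both called, of 0.09, not called (adjusted p = 0.824), and of 0.35. CG6126, a predicted organic cation transporter, rose by 1.32 in brain and changed by 0.13 in antennae (contrast 1.18, adjusted p = 0.0194), and Mdr65, a drug efflux pump of the blood-brain barrier, by 0.64 and −0.03 (contrast 0.66, adjusted p = 0.0342, held in 6 of 16 fits that left out an array). From other lists, LManI, a lysosomal mannosidase, rose by 0.96 and changed by −0.14 (contrast 1.10, adjusted p = 0.00291), with slides between 1.07 and 1.12. Ugt301D1 (contrast 1.05, adjusted p = 0.014) and Obp19c (1.0, adjusted p = 0.00669) were also called in brain alone, but the other probe of Obp19c gave 0.46 (adjusted p = 0.349). The calls of Est-6 (1.10, adjusted p = 0.0485) and Obp83cd (1.12, adjusted p = 0.0447) held in 3 and 6 of 16 fits that left out an array, and the other probe of Est-6 gave 1.09 (adjusted p = 0.0796). Obp83cd also lost its call with normexp, with median centring and with the 75th percentile taken over detected probes.

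In brain alone 163 genes fell, by a median of 1.35. Among those measured on all arrays and with a narrow antennal interval, wb fell most. It encodes a laminin alpha chain of the basement membrane. Its brain levels were −3.39, −3.01, −2.98 and −3.03 starved and −1.52, −1.92, −1.95 and −1.36 fed, and its antennal levels −1.03, −1.04, −1.03 and −1.08 starved and −1.39, −1.27, −1.30 and −1.15 fed. Starved and fed did not overlap in either tissue. The brain change was −1.41 (SE 0.13, 2.66-fold), the antennal change of 0.24 (95% interval −0.03 to 0.51) was not called, and the contrast was −1.65 (SE 0.18, adjusted p = 0.000481). CG9313 (contrast −1.24, adjusted p = 0.0105) and the transcripts TC220827 (−1.21, adjusted p = 0.018) and BT022795 (−1.25, adjusted p = 0.0115) followed. CG9313 was far dimmer in brain, with means of −6.11 and −4.96, than in antennae, with 0.11 and 0.02. The phosphoserine phosphatase gene aay, the last step of serine synthesis, named after its values were seen, changed by −1.03 in brain and 0.39 in antennae (contrast −1.41, adjusted p = 0.0032).

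A steeper set of falls in brain shared an order of arrays. In 34 of the genes with a called contrast the brain level labelled starved was at least 16-fold lower. GstD7, a glutathione transferase, was at −6.60, −4.74, −4.66 and −5.98 starved and at 0.74, 1.55, −0.31 and −1.67 fed in brain, while its antennal means were −1.65 and −1.99. Its contrast was −5.92 (SE 0.79, adjusted p = 0.00195), but its other probe changed by −0.79 in brain (contrast −1.16, adjusted p = 0.597). CG9114 (contrast −4.93, adjusted p = 0.00196) and CG16786 (−4.81, adjusted p = 0.0021), named after their values were seen, had the same shape. Ir87a, of the ionotropic receptor family, was not well above background on any starved brain array or any antennal array. In brain its fed mean of −3.79 was at least 17.6-fold higher. In 32 of these 34 genes (94.1%) fed brain replicates 1 and 2 were both above replicates 3 and 4, which was so for 24.7% of all tested genes and 34.4% of the shared genes that fell. The summed level of 18 male and testis markers had the same order, with 39.7, 42.6, 28.3 and 18.5 on fed brain replicates 1 to 4 and 19.9 to 21.3 on starved ones. On antennal arrays it was 8.85 to 10.9. The part of this in the steep falls was not tested.

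Genes that rose in antennae alone numbered 28. Cyp4p3, a cytochrome P450, had antennal levels of −1.73, −1.66, −1.33 and −1.48 starved and −2.71, −2.58, −2.66 and −2.60 fed, without overlap. In brain it was at −5.10, −5.16, −4.72 and −4.87 starved and at −4.82, −4.89, −4.98 and −4.46 fed, which overlapped. It rose by 1.09 (SE 0.12, 2.12-fold) in antennae, changed by −0.17 (95% interval −0.44 to 0.09) in brain, and had a contrast of −1.26 (SE 0.18, adjusted p = 0.00228). The other probe of Cyp4p3 gave −1.0 (adjusted p = 0.113). Jheh1, an epoxide hydrolase that degrades juvenile hormone, was at 5.31, 5.25, 5.29 and 5.22 starved and at 4.63, 4.45, 4.56 and 4.49 fed in antennae, and the slides gave contrasts from −0.81 to −0.33. Its contrast was −0.61 (adjusted p = 0.00907), and −0.45 by its other probe (adjusted p = 0.0821). CG33474 had a contrast of −1.0 (adjusted p = 0.00907). SerT, the serotonin reuptake transporter, rose by 0.65 in antennae and changed by 0.19 in brain (contrast −0.46, adjusted p = 0.0464), and 1 of its 2 other probes was called, at −0.78. The call of SerT held in 3 of 16 fits that left out an array, and was lost with quantile scaling and with median centring.

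Among odorant receptor genes the called contrasts all favoured antennae. Of 45 tested, 7 had a called contrast, all with the lower response in brain, against 1.43% of all tested genes, and 39 contrasts were below 0 (median −0.58). Of the 45 receptors, 8 were measured on all 16 arrays. For the others the contrast rests in part on background. The counts and signs of the contrasts are thus not read as a result for the family. With quantile scaling 4 were called and with normexp 26, all of them downward. In antennae 9 rose and 1 fell, against 8.18% and 14.6% of all tested genes, with a median of 0.33. Or88a, a receptor of trichoid sensilla, was at 0.74, 0.85, 0.87 and 0.82 starved and at 0.03, 0.12, 0.12 and 0.20 fed in antennae, a rise of 0.70 without overlap. In brain, far dimmer, it was at −5.47, −5.64, −5.14 and −4.85 starved and at −5.13, −4.87, −5.26 and −5.06 fed, which overlapped. The contrast of Or88a was −0.89 (SE 0.19, adjusted p = 0.0232). Its call held in 14 of 16 fits that left out an array and was lost with quantile scaling. Or85b and Or65b changed in opposite directions (0.74 and 0.62 in antennae, −0.50 and −0.62 in brain), with contrasts of −1.24 each and adjusted p of 0.00291 and 0.0384. Or65b was well above background on 1 of 8 brain arrays, so that the size of its fall there is not bounded, and Or85b on 4. The call of Or65b held in 3 of 16 fits that left out an array and was lost with quantile scaling and with array weights. For Or22a (contrast −1.34, adjusted p = 0.0401) and Or7a (−1.05, adjusted p = 0.0209) the fall was in brain, where Or7a was not well above background on any starved array. The call of Or22a held in 3 of 16 such fits and was lost with quantile scaling, which also ended that of Or7a. With normexp the call of Or7a was lost as well. In all, 14 of the 45 genes were not well above background on any brain array. The summed level of the 45 receptors was 72.4 to 76.3 on starved and 57.1 to 63.0 on fed antennal arrays, and 0.673 to 0.955 and 0.83 to 0.956 in brain. The taste receptor gene Gr10a, also expressed in antennae, rose in both tissues, by 0.88 and 0.25 (contrast −0.63, adjusted p = 0.0068). Its call was lost with quantile scaling and with median centring.

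Ionotropic receptors also had mostly negative contrasts, 21 of 23, with a median of −0.55. Over all tested genes the median was −0.03, and 7356 of 16519 contrasts were above 0. Of the 23 receptors 7 were well above background on all 16 arrays, 5 on no brain array and 2 on no antennal array. The contrast was called for 2, Ir87a and Ir56a, both by a fall in brain, against 1.43% of all tested genes. In antennae 1 rose and 2 fell, against 8.18% and 14.6% of all tested genes. The families were not tested against each other. Ir56a was at −4.95, −5.43, −5.63 and −6.07 starved and at −3.75, −3.40, −3.48 and −3.80 fed in brain, without overlap, and its contrast was −1.60 (SE 0.26, adjusted p = 0.00422). Of 40 odorant-binding proteins 5 were called, all with the higher response in brain, against 1.78% of all tested genes. Obp56c was well above background in antennae alone. There it was at −5.15, −6.09, −5.70 and −5.77 starved and at −4.26, −3.79, −3.46 and −3.56 fed, a fall of 1.91 (SE 0.24, adjusted p = 0.000233).

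In antennae alone 41 genes fell, by a median of 0.86. AstA, the precursor of the peptide allatostatin A, was at −4.08, −3.80, −3.06 and −4.09 on starved and −1.32, −1.56, −2.14 and −2.60 on fed antennal arrays, which did not overlap. In brain it was at 3.75, 3.35, 3.55 and 3.66 starved and at 3.45, 3.35, 3.59 and 3.66 fed, with a change of 0.06 (95% interval −0.50 to 0.62). The contrast was 1.91 (SE 0.37, adjusted p = 0.0117), and slides gave 3.06, 2.23, 0.88 and 1.48. The other probe of AstA gave a contrast of 1.81 that was not called (adjusted p = 0.0964). Among genes with a narrow brain interval and measured on all arrays, CG14795 (antennae −1.06), LD15174 (−0.89), CG18367 (−0.86) and Idua, an enzyme that degrades glycosaminoglycans (−0.82), fell most. These 4 genes had brain means between −1.60 and −0.32 and antennal means between −5.49 and −3.35. Their calls held in 4, 4, 5 and 2 of 16 fits that left out an array, with contrasts from 0.69 to 1.11. The other probe of CG14795 changed by −0.32 in antennae and −0.28 in brain (contrast 0.04, adjusted p = 0.979), and the average of both probes was not called. Cyp6g2 fell by 1.36 in antennae and changed by 0.42 in brain (contrast 1.78, adjusted p = 0.00327, and 1.15 by its other probe).

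The genes that fell in antennae alone were mostly brighter in brain. Of the 41 genes 28 had the higher mean in brain, 19 of them by at least 4-fold, and the median level was 1.46 higher in brain. The 28 antennal rises had the reverse, with 25 brighter in antennae, 17 of them by at least 4-fold. Of 27 brain markers 11 fell in antennae, against 14.6% of all tested genes, and 3 rose there, with a median of −1.21 there and of 0.10 in brain, and 3 had a higher and 1 a lower response in brain. Neuropeptide genes, a list that shares AstA and Ilp3 with the brain markers, had similar medians. Of 34 tested 13 fell and 3 rose in antennae, with medians of −1.20 in antennae and 0.10 in brain, although 3 contrasts were called (Nplp2, AstA and Ilp3, against 3.21% of all tested genes). With normexp the antennal medians were −0.20 for the neuropeptides and −0.14 for the brain markers, and the median contrasts 0.46 and 0.20. Well above background on all 16 arrays were 18 of the 34 neuropeptide genes and 13 of the 27 brain markers. Crz, Pdf, Ilp2 and SIFa, peptides of few brain neurons, fell in antennae, with changes of −4.16, −3.84, −3.45 and −2.49, without a called contrast. The summed level of the brain markers was not lower on starved antennal arrays, with 24.0 to 26.4 against 19.5 to 24.8 fed, and that of the neuropeptides was 29.3 to 35.7 against 26.1 to 42.3. The 39 digestive genes, of which 14 fell in antennae, had their high sums on fed antennal replicates 1 and 2, as given above. The part of RNA of other tissues in the antennal falls, that of AstA included, was not tested. Muscle markers gave a median contrast of 0.61, with 23 of 24 above 0 and 1 called (against 3.21% of all tested genes). This was TpnC47D, a troponin C of muscle, which fell from −3.51, −4.72, −6.53 and −7.06 fed to a level not well above background on any starved antennal array. Of these fed arrays 2 were well above background, so that the size of the fall is not bounded. TpnC47D rose by 1.75 in brain (contrast 4.23, adjusted p = 0.017). Its other probe gave 3.64 (adjusted p = 0.0861).

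**Figure D3:**
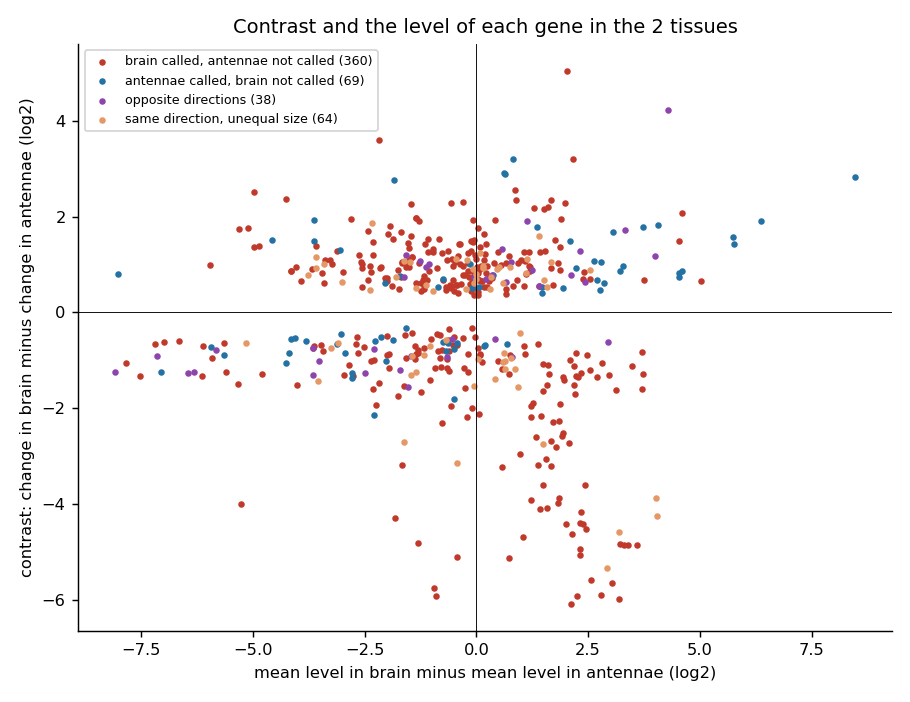
Contrast of each of the 531 called genes (y axis, log2) against its mean level in brain minus that in antennae (x axis, log2). Of the 69 genes called in antennae and not in brain, those with positive contrast lie mostly to the right of 0 (28 of the 41 that fell) and those with negative contrast to the left (25 of the 28 that rose).

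In 64 genes both tissues changed the same way by unequal amounts, 36 upward and 28 downward in brain. Cyp4e3, a cytochrome P450, was at 1.10, 1.18, 1.22 and 0.83 starved and at 2.02, 2.13, 1.78 and 1.80 fed in antennae, and at −1.48, −1.73, −1.85 and −2.51 starved and at 1.33, 1.88, 1.51 and 1.95 fed in brain. All starved arrays were lower in both tissues. Its change was −0.85 (1.81-fold) in antennae and −3.56 (11.8-fold) in brain, a contrast of −2.70 (SE 0.28, adjusted p = 0.000327), and its other probes gave −2.87 and −2.66. The predicted sugar transporter gene pippin, named after its values were seen, rose by 0.49 in antennae and 2.35 in brain (contrast 1.86, adjusted p = 0.000351). LManII rose by 0.42 and 1.23 (contrast 0.81, adjusted p = 0.00407). The scavenger receptor gene santa-maria rose by 0.23 and 0.68 (contrast 0.45, adjusted p = 0.0297), a call that held in 6 of 16 fits that left out an array. The gut lipase gene mag fell in brain to a level not well above background on any starved array, from a fed mean of −3.94, at least 14.7-fold. In antennae it was well above background on 2 of 8 arrays, and its contrast was −2.75 (adjusted p = 0.00537).

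The shared response is the measure against which these genes stand. Its genes changed by a median of 0.39 in brain and 0.38 in antennae where they rose, and of −0.72 and −0.66 where they fell, and 90.7% of those that fell had levels within 4-fold in the 2 tissues. The corresponding share was 57.7% of the brain falls and 39.0% of the antennal falls that were called alone. Of the rises called alone it was 77.2% in brain and 39.3% in antennae. Over all tested genes it was 80.2% of those higher and 80.8% of those lower in starved brain. Srg1 rose most, from −3.64, −3.49, −4.49 and −4.69 fed to −0.96, −0.74, −0.78 and −0.99 starved in antennae and from −2.92, −2.89, −3.47 and −2.80 to 0.48, 0.23, 0.72 and 0.64 in brain. Both changes were far outside the spread (3.21 and 3.54, SE 0.24 each), and their difference was 0.33 (95% interval −0.40 to 1.05). For Pepck1 the difference was −0.16 (95% interval −1.13 to 0.80). CG10553 and TC203931 rose by 1.74 and 1.85 in antennae and by 1.85 and 1.91 in brain. Cyp12d1-d and Cyp12d1-p, near-identical copies that probes may not tell apart, fell by 2.38 and 2.24 in antennae and by 3.12 and 3.14 in brain.

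**Figure D4:**
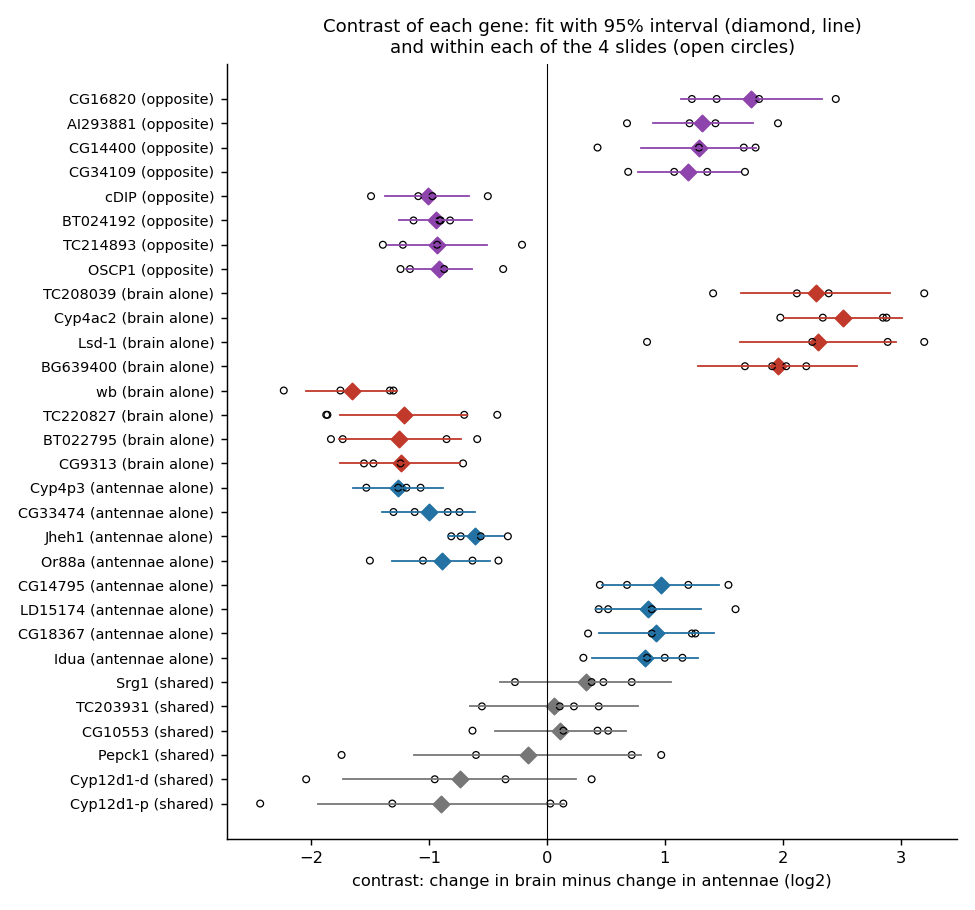
Contrast (log2, change in brain minus change in antennae) of the genes named by rule: the diamond and line give the estimate with its 95% interval over 16 arrays and open circles the values within each of the 4 slides. The 24 genes with a called contrast were chosen to have 1 sign on all slides, and the slides of all 6 shared genes fall on both sides of 0.

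Several families had no called contrast. Over all tested genes 3.21% had one, 14.2% were shared, 13.6% rose in brain and 8.18% rose in antennae. The shares that rose depend on the scaling, as given above. None of 84 cytoplasmic ribosomal proteins was called, although 79 of 84 contrasts were above 0 (median 0.22) and 57 rose in brain against 7 in antennae. Quantile scaling, normexp and the 75th percentile taken over detected probes gave 1 call each. None of 32 proteasome subunits was called, 10 were shared and all 10 rose, and 17 rose in antennae and 11 in brain. Of 22 heat shock genes 6 were shared, among them Hsp70Ba, which fell by 3.43 in antennae and 2.03 in brain. Likewise there was no called contrast among 23 autophagy genes, 15 clock genes, 33 genes of glycolysis and the citrate cycle, 70 of the respiratory chain, 72 mitochondrial ribosomal proteins or 32 neuropeptide receptors. Of the neuropeptide receptors 1 was called with quantile scaling and 1 with normexp. A simulation with known changes had shown that contrasts of 0.5 are mostly missed at this number of arrays. Among 69 cytochrome P450 genes 4 had a higher and 3 a lower response in brain, against 1.78% and 1.43% of all tested genes. Among 34 glutathione transferases 1, GstD7, was called, against 3.21% of all tested genes.

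**Figure D5:**
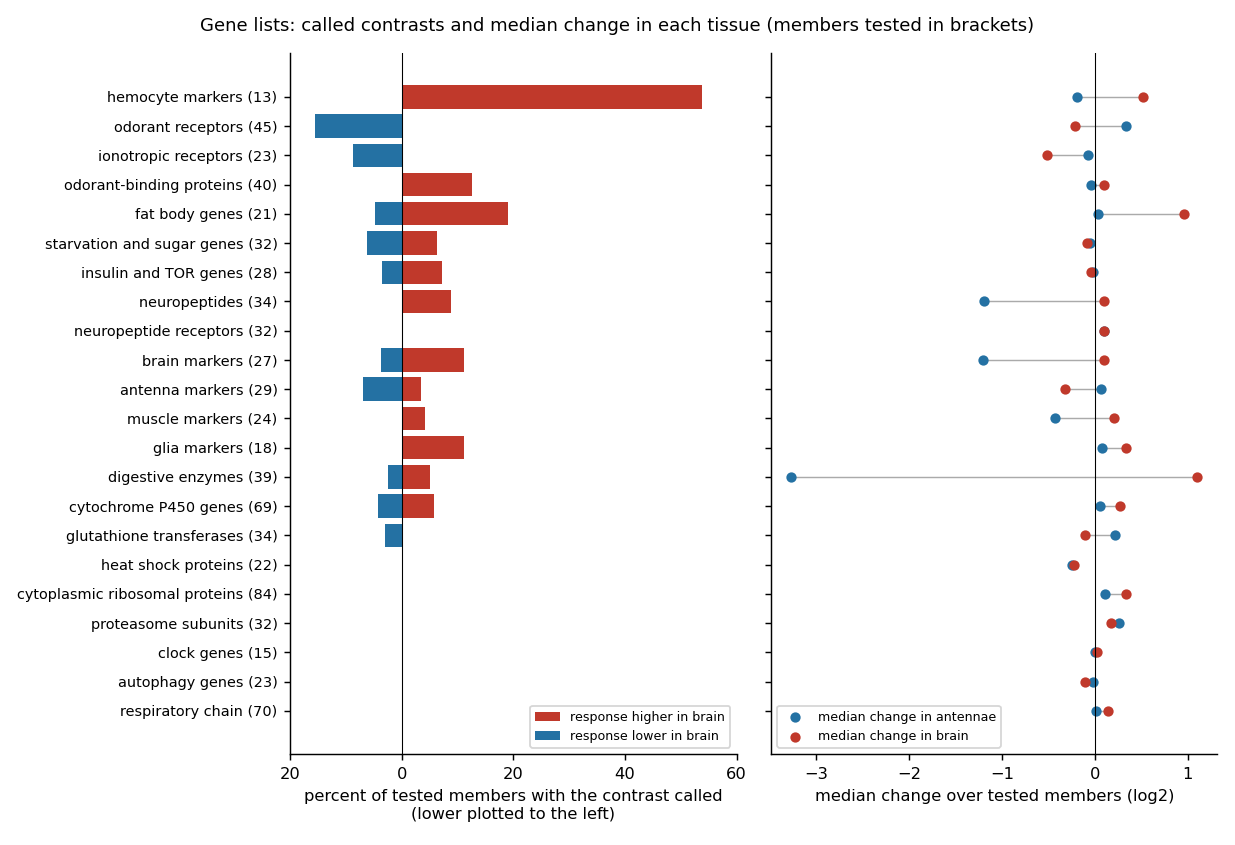
Share of the tested members of each gene list whose contrast was called (left, percent, with a higher response in brain to the right of 0 and a lower one to the left) and median change over the members in antennae and in brain (right, log2). Hemocyte markers have the highest share, 7 of 13, and digestive enzymes, neuropeptides and brain markers have the lowest antennal medians. With normexp, not drawn here, these antennal medians were −1.19, −0.20 and −0.14.

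The peptide genes that the study follows differed little between the tissues, apart from AstA. The precursor gene sNPF was at 1.27, 1.12, 1.14 and 1.22 starved and at 1.29, 1.10, 1.30 and 1.29 fed in antennae, and at 1.62, 1.74, 1.62 and 1.61 starved and at 1.56, 1.55, 1.66 and 1.55 fed in brain. The groups overlapped in both tissues, and the contrast was 0.13 (95% interval −0.06 to 0.32, adjusted p = 0.526). The other probe of sNPF changed by −0.51 in antennae and −0.40 in brain (contrast 0.11, adjusted p = 0.856). The rise of sNPF that the study gives for antennae was thus not seen with either probe. CCHa1, the precursor of CCHamide-1, fell in both, by 0.60 in antennae and 0.28 in brain (contrast 0.32, 95% interval 0.07 to 0.57, adjusted p = 0.172). Its other probes disagreed on the sign of the contrast, with 0.50 and −0.81 (adjusted p = 0.0844 and 0.215). CCHa2, which encodes a related peptide, rose by 0.57 in brain and changed by 0.07 in antennae (contrast 0.50, 95% interval 0.17 to 0.83, adjusted p = 0.109). The receptor genes sNPF-R, AstA-R1 and CCHa1-R had contrasts of −0.01 (95% interval −0.24 to 0.21), −0.03 (−0.31 to 0.25) and −0.04 (−0.63 to 0.54). CCHa1-R was well above background on 3 of 4 antennal arrays of either label, and its interval was the widest of these receptors.

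Genes measured in 1 tissue only have a contrast that rests on the background of the other tissue. Of the 16519 tested genes, 683 were not well above background on any antennal array and 280 on any brain array. They entered the test through the other tissue alone, so their counts and directions are not read as a result. In brain the largest falls were those of TC218998, from 0.19, 0.45, −1.5 and −2.60 on fed brain arrays to a level not well above background on any starved one (at least 121-fold), and of CG32651 (at least 82.9-fold). Among those measured in antennae only, Obp56c had the largest change, followed by the transcript NP028494, which fell by 1.57 (adjusted p = 0.011) and was well above background on 1 starved and 4 fed antennal arrays.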

How the data were processed

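Antennae and brains of starved and fed flies were profiled on one-colour Agilent arrays. The authors deposited the scanner output of Agilent Feature Extraction 9.1, in which the signal intensity of each spot is background subtracted and not scaled between arrays, and a table on the log2 scale whose columns differ from that signal by a single constant each (largest deviation 5.05e-10). The table served as an alternative. The build is not given in the sources used here.

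Control spots (1417 of 45020) and 49 outlier spots were left out, and no spot was saturated. The 75th percentile of each array was subtracted from its log2 signals, as in the methods, and spots of 1 probe were averaged. Of 32162 probes, 22784 were tested, those with at least 0.5 of their spots well above background throughout the 4 arrays of some group. Names came from Release 6 of the fly annotation and matched 20712 probes (64.4%) to 13128 genes. A gene was represented by its brightest tested probe. Group means were fitted over all 16 arrays with limma 3.58.1 (lmFit, eBayes) in R 4.3.3, two-sided, with Benjamini-Hochberg adjustment over all probes at 0.05, for the change in each tissue and the contrast. No replicate block was used, as in the methods. The labels number the extracts within each group, and the number is also the slide. At unadjusted p under 0.05 the contrast passed for 3681 probes (16.2%). "At least" folds set the brighter group's mean against the mean, per array, of the higher of the lowest signal well above background and the dim probe's own. They are given only where the brighter group was well above background on all 4 arrays.

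Genes measured on all 16 arrays were named by rule: the 4 largest contrasts of each sign among opposite changes, the 4 largest rises and falls called in 1 tissue with a narrow interval in the other (both with 1 sign on all slides), and 3 shared rises and falls. The study's peptide genes and receptors, the 2 largest changes measured in each tissue only, and up to 4 called members per gene list were also named. Jabba, glob1, mnd, pippin, CG9114, CG16786, aay, Mcm7, PolA1 and the list members without a called contrast were chosen after their values were seen. The members and lists were chosen with earlier results of these data known.

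Alternatives were the replicate block, a random block for brain and antennae of 1 feeding state and number, 2 other filters, normexp (offset 50), 3 other scalings, the deposited table, array weights, separate fits per tissue, the methods' t-test, gene averages, a 2-fold threshold and leaving out each array. Data were simulated with 200 of 22784 probes changed, and the contrast recovered 12 of 67 changes of 0.5, 42 of 67 of 1 and 57 of 66 of 2 on the log2 scale, with 5.13% false calls. The number of arrays limits the precision. Where nothing says that extracts came from separately reared flies, p-values measure the spread between extracts.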

Additional observations from a re-analysis of the deposited data

Results flagged for a closer look

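The difference between the tissues was itself called for 74 of the named genes, and each is given here with its contrast, the change in brain minus that in antennae on the log2 scale. Among genes that changed in opposite directions, the contrast was above 0 for TpnC47D (4.23), CG16820 (1.73), AI293881 (1.32), CG14400 (1.29), CG34109 (1.20), mnd (1.19), PolA1 (1.07), glob1 (1.06) and Mcm7 (1.02). In the same kind of genes the contrast was below 0 for Or85b (−1.24), Or65b (−1.24), cDIP (−1.01), BT024192 (−0.94), TC214893 (−0.93) and OSCP1 (−0.91). Among genes called in brain and not in antennae, the contrast was above 0 for fit (5.05), Def (3.6), Lsp2 (3.21), Cyp4ac2 (2.51), Lsd-1 (2.30), TC208039 (2.28), Obp99b (2.20), Nplp2 (2.16), Jabba (1.97), BG639400 (1.96), Hml (1.22), CG6126 (1.18), Obp83cd (1.12), Est-6 (1.10) and LManI (1.10). Further genes called in brain and not in antennae with a contrast above 0 were Ugt301D1 (1.05), Obp19c (1.0), eater (0.92), Ppn (0.91), Vmat (0.85), Mdr65 (0.66), Ilp6 (0.65) and Lsd-2 (0.57). Among genes called in brain and not in antennae, the contrast was below 0 for TC218998 (−5.99), GstD7 (−5.92), CG32651 (−5.64), CG9114 (−4.93), CG16786 (−4.81), Ir87a (−4.63), wb (−1.65), Ir56a (−1.60), aay (−1.41), Or22a (−1.34), BT022795 (−1.25), CG9313 (−1.24), TC220827 (−1.21), bmm (−1.14) and ImpL2 (−1.11). Or7a (−1.05) belonged to the same genes. Among genes called in antennae and not in brain, the contrast was above 0 for Ilp3 (2.83), Obp56c (1.93), AstA (1.91), Cyp6g2 (1.78), PPO1 (1.78), CG14795 (0.97), CG18367 (0.93), LD15174 (0.86) and Idua (0.83). Of the same antennal genes it was below 0 for Cyp4p3 (−1.26), CG33474 (−1.0), Or88a (−0.89), Jheh1 (−0.61) and SerT (−0.46). Among genes that changed the same way by unequal amounts, the contrast was above 0 for pippin (1.86), LManII (0.81) and santa-maria (0.45). It was below 0 for mag (−2.75), Cyp4e3 (−2.70) and Gr10a (−0.63).

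In 20 of 348 groups of 4 arrays (5.75%) the levels of a named gene had 1 array apart from the other 3, by a gap over 0.83 of the whole range of the group. Chance gives about 1 in 20. In starved antennae the gene, the array, its side and the gap as a share of the range were ImpL2 (replicate 3, low, 0.867). In fed antennae the gene, the array, its side and the gap as a share of the range were TC214893 (replicate 2, low, 0.872), CG33474 (replicate 4, high, 0.865), CG14795 (replicate 2, high, 0.932), sNPF (replicate 2, low, 0.909), TC218998 (replicate 1, low, 0.905), Lsd-2 (replicate 3, low, 0.838), Mdr65 (replicate 3, high, 0.92) and glob1 (replicate 4, high, 0.845). In starved brains the gene, the array, its side and the gap as a share of the range were CG16820 (replicate 4, low, 0.868), TC214893 (replicate 2, low, 0.852), wb (replicate 1, low, 0.868), sNPF (replicate 2, high, 0.928), Lsp2 (replicate 4, low, 0.948), mnd (replicate 2, low, 0.835) and PolA1 (replicate 3, high, 0.831). In fed brains the gene, the array, its side and the gap as a share of the range were Lsd-1 (replicate 4, high, 0.896), CG14795 (replicate 1, low, 0.831), sNPF (replicate 3, high, 0.891) and Ilp6 (replicate 3, low, 0.903).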

How the results depend on the processing

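Settings changed how many genes were called far more than the sign of a contrast. A random block for samples of 1 feeding state and number gave 113 antennae-alone genes. Probes measured on all 16 arrays gave 130 contrasts with a lower response in brain. With normexp these were 427, and 134 genes were antennae-alone and 1208 shared. Quantile scaling gave 21 genes of opposite direction. Array weights, lowest (0.344) for fed brain replicate 4, gave 665 contrasts higher and 670 lower in brain, 107 opposite, 799 brain-alone and 246 antennae-alone genes. The methods' t-test after Benjamini-Hochberg adjustment gave 31 higher, 16 lower, 5 opposite, 30 brain-alone, 2 antennae-alone and 1319 shared genes. A 2-fold threshold gave 138 higher, 141 lower, 1 opposite, 208 brain-alone, 20 antennae-alone and 311 shared genes, which its construction makes fewer. The cause of the other shifts was not tested. Of the 531 genes called, 388 were also called with normexp, 419 with quantile scaling, 391 with median centring, 524 with the deposited table and 45 with the methods' t-test. OSCP1, CG9313 and CG33474 were among the named genes whose call was lost with quantile scaling. The settings named beside a gene are not a full list of its losses. Or65b, SerT, Obp83cd, Ilp3 and Obp99b also lost their calls with the replicate block and without a filter on dim probes. Lsp2 lost its call without that filter and with normexp.

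Leaving out 1 array gave 169 to 379 contrasts higher and 145 to 399 lower in brain, 24 to 57 opposite, 213 to 488 brain-alone, 36 to 131 antennae-alone and 1619 to 2754 shared genes. Without fed antennal replicate 2 there were 169 higher, 145 lower, 24 opposite, 213 brain-alone and 41 antennae-alone genes. Without starved antennal replicate 1 there were 190 higher, 24 opposite and 239 brain-alone genes, and without starved antennal replicate 2 there were 194 higher, 156 lower, 24 opposite and 36 antennae-alone. Without starved brain replicate 3 there were 174 higher, 239 brain-alone and 40 antennae-alone genes. Without starved brain replicate 1 there were 188 higher, without starved brain replicate 2 there were 43 antennae-alone, without fed antennal replicate 4 there were 131 antennae-alone, and without fed brain replicate 4 there were 399 lower.

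The replicate block left 485 called genes, 418 of them among the 531 (78.7%). Same-numbered samples correlated between −0.292 and 0.305 in their deviations (24 pairs, median 0.02) and others between −0.385 and 0.368, so the number is shared without a pairing in the data.

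Over the values of named genes, 2348 settings kept the sign and the call, 320 lost the call, 2 gained it and 11 turned the sign. The turned signs were all in contrasts near 0. For sNPF-R the gene average gave 0.01, and leaving out 1 array gave −0.06 to 0.05. For CCHa1-R leaving out 1 array gave −0.20 to 0.19 and for AstA-R1 −0.10 to 0.02. Depth limits the genes not well above background in 1 tissue, 63 of 531 in antennae and 11 in brain, where the contrast rests on background.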

Other observations

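Further gene groups with at most 1 called contrast are given by how many members changed in each tissue, without a test of the difference. Over all tested genes 13.6% rose and 24.1% fell in brain, 8.18% rose and 14.6% fell in antennae, and 3.21% had a called contrast. The 4 tested Turandot genes, secreted stress proteins of the fat body, were all called as rising in brain. In antennae none was called, although 0 of the 4 changes were below 0. The medians were 2.63 in brain and 1.05 in antennae, and no contrast was called. Of the 33 genes of glycolysis and the citrate cycle 15 rose and 2 fell in brain, and 7 rose and 4 fell in antennae. Of 23 UDP-glycosyltransferases, which attach sugars to small molecules, 8 rose and 2 fell in brain and 5 rose in antennae, and 1 contrast was called. The summed level of 11 ovary markers was 72.1 to 143 on starved brain arrays and 23.2 to 44.0 on fed ones, while 3 of the 11 genes rose and 5 fell there.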
